A study of Mus musculus with 4 samples.

Results

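Prox1 and 7 genes of the lymphatic endothelial programme, Foxc2, Gata2, Itga9, Lyve1, Mmrn1, Reln and Pdpn, were followed in endothelial cells of the mouse heart. These 8 genes, of 27998 in the count tables, were chosen for their known roles, but with earlier results of these data known. Each had counts at every stage. CD31+/CD45- heart cells of C57Bl6J mice had been sorted and sequenced as single cells at E12 (37 pooled animals), E15 (48), P2 (21) and in the adult at 8 weeks (6), a gate that keeps endothelium of all kinds and removes blood leukocytes. Each stage is 1 library, so cells are not replicates, no test between stages or classes was possible, and animals within a pool cannot be told apart. The libraries held 5732, 6062, 5884 and 4242 cells with medians of 1241, 1013, 4531.5 and 1510 unique molecular identifiers (UMIs, 1 per captured transcript), and 25 to 60 barcodes were shared between each pair of libraries.

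Lymphatic endothelium is set apart from blood endothelium by the transcription factor Prox1, which is needed both to specify and to keep lymphatic identity. In collecting lymphatics, Prox1 acts with Foxc2 and Gata2 to form intraluminal valves, and integrin α9, encoded by Itga9, anchors fibronectin in the valve leaflets. Heart valves, like lymphatic valves, are leaflets lined by endothelium exposed to changing flow, which raises the question of which lymphatic genes valve endothelial cells carry.

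Cells were classed by the transcripts seen in them. Valve cells held at least 2 UMIs of Cldn11, Enpp2 and Aqp8 together, and their numbers from E12 to the adult were 21, 65, 427 and 22. Lymphatic cells were other cells in which 2 or more of Lyve1, Mmrn1, Reln and Pdpn were seen, and their numbers were 5, 9, 128 and 11. Of the remaining cells, endocardial cells held more UMIs of Npr3 and Tmem108 than of Fabp4, Cldn5 and Aplnr (1708, 2105, 935 and 70 cells), and coronary cells held at least 2 UMIs of the latter set and more than of the former (111, 1233, 4236 and 4054 cells). Levels are UMIs of a gene per 1000000 UMIs of a class (CPM). Intervals are exact 95% intervals that cover counting error only. A ratio compares the CPM of a gene in 2 classes of the same library.

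The class names were checked against other markers. At P2 the 5 valve markers Postn, Wnt4, Pthlh, Cryab and Nfatc1 summed to 1298 CPM in valve cells, 634 in endocardial, 209 in lymphatic and 152 in coronary cells. The chemokine Ccl21a, which guides dendritic cells into lymphatics, reached 19893 CPM in lymphatic, 1579 in valve, 79.4 in coronary and 18 in endocardial cells. Of 7 macrophage markers, 5 were at 0 in the P2 lymphatic cells and the list summed to 2.53 CPM, which bears on Lyve1, since macrophages carry it too. At E12 the labels are weak: Prox1 was at 0 in all 5 lymphatic cells, Wnt4 and Cryab were at 0 in the 21 valve cells, and the names stand there only for the rule. The adult valve label is weak too, since the 5 valve markers summed to 869 CPM in valve and 631 in endocardial cells. There the coronary markers Gpihbp1, Car4, Apln, Kcne3 and Cxcl12 summed to 781 CPM in valve, 135 in endocardial and 4274 in coronary cells. The 6 mesenchymal markers summed to 2007 CPM in P2 valve cells and 1179 in endocardial cells, and in the adult to 7247 and 2978 CPM. In cells with at most 1 UMI of other cell types, mesenchymal markers included, 114 P2 and 3 adult valve cells remained. There the P2 log2 ratio of Prox1 in valve over endocardial cells was 3.50, against 2.67 in all cells. Of these 114 valve cells 14.9% also met the lymphatic rule, against 5.39% of all P2 valve cells. The part of those cells in the higher ratio was not tested. Beyond this, the part of mesenchymal markers in the valve values below was not tested.

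Prox1 (ENSMUSG00000010175) lies on the minus strand at chr1:190118035-190170714 (GRCm38). In valve cells it was at 0 of 35177 UMIs at E12, and stood at 162 CPM at E15 (95% interval 94.4 to 259), 133 at P2 (119 to 148) and 121 in the adult (60.4 to 216). Endocardial cells held 7.33, 14.8, 20.8 and 59.3 CPM over the 4 stages. Coronary cells held 12.6, 9.76, 6.46 and 2.95 CPM. Valve cells were thus above endocardial cells at E15, where the ratio was 10.9 (5.76 to 20), and at P2, where it was 6.38 (5.04 to 8.14), each time without overlap of the class intervals. The adult ratio of 2.04 had an interval that included 1 (0.801 to 5.18), its 11 valve UMIs came from 3 cells, and without the barcodes over the study's upper limits on UMIs, genes and mitochondrial share the log2 ratio turned from 1.03 to -0.80. At E12 the 0 UMIs in valve cells allow a level of up to 85.3 CPM, so a level like that of the endocardial cells was not detectable at this depth.

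Lymphatic cells carried more Prox1 than valve cells at P2. Prox1 stood at 162 CPM in the 9 lymphatic cells of E15 (33.4 to 474), 285 at P2 (249 to 324) and 320.2 in the adult (104 to 747, 5 UMIs). At P2 a Prox1 UMI was seen in 76.6% of lymphatic cells (68.3% to 83.6%), 33.5% of valve cells (29% to 38.2%), 8.88% of endocardial cells (7.13% to 10.9%) and 2.6% of coronary cells (2.14% to 3.12%), at median depths of 5380.5, 5144, 4486 and 4468 UMIs. Thinned to 500 UMIs per cell the shares were 14.8%, 5.62%, 1.28% and 0.236%, in the same order. The coronary share is set beside them for blood endothelium, a class that still held single cells with up to 9 Prox1 UMIs, and free RNA of this stage was not measured. The order lymphatic, valve, endocardial, coronary held for the P2 levels with no overlap of neighbouring intervals.

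**Figure D1:**
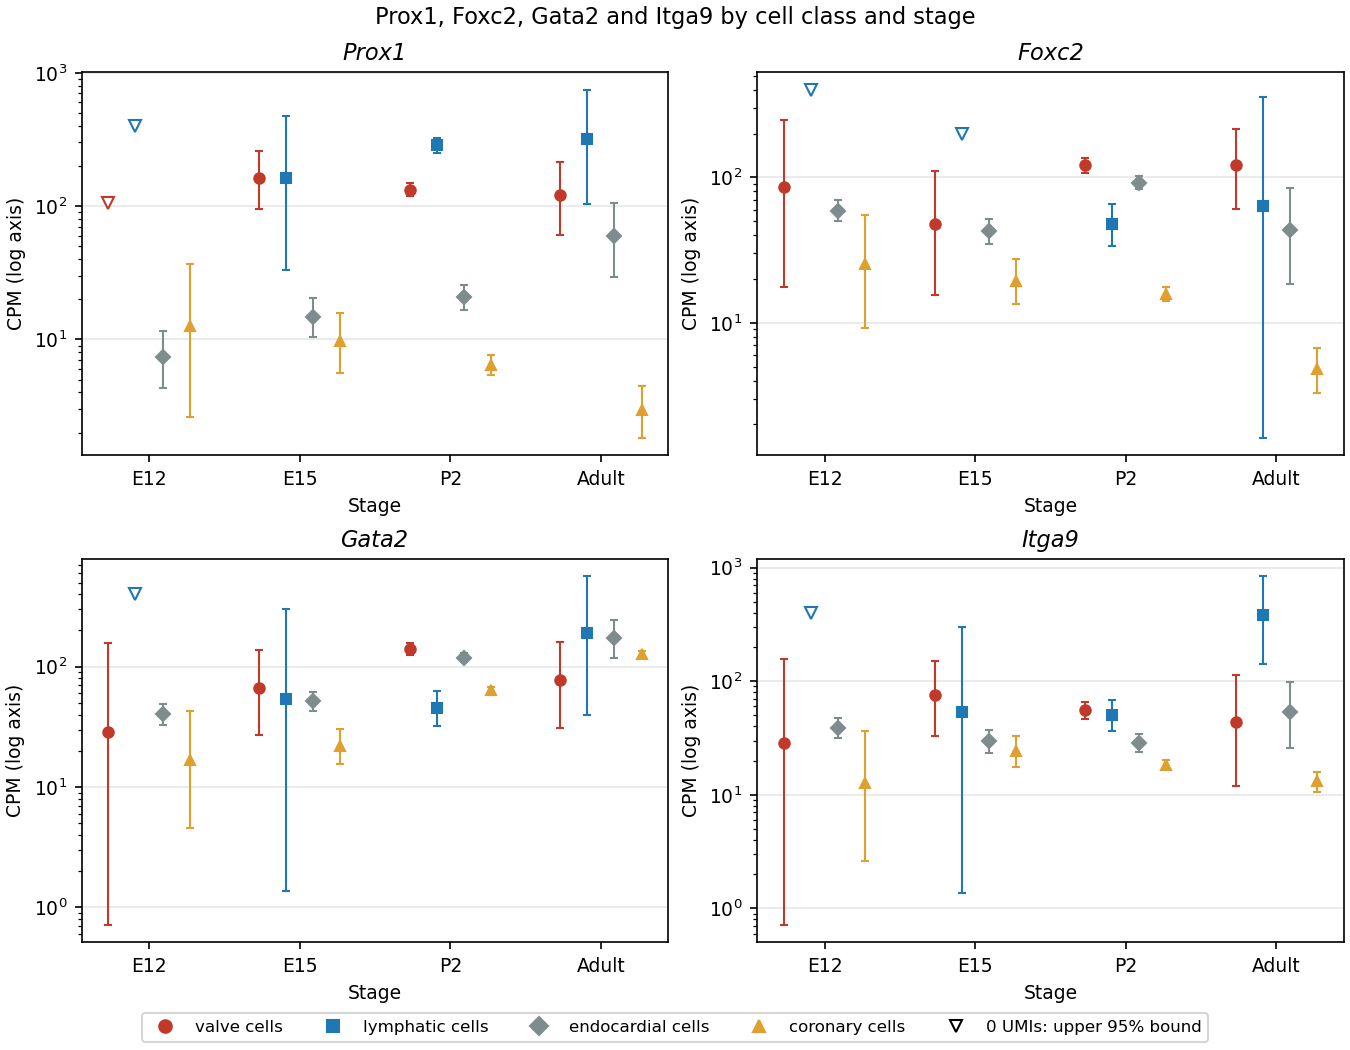
CPM (log axis) of Prox1, Foxc2, Gata2 and Itga9 in valve, lymphatic, endocardial and coronary cells at each stage, with exact 95% counting intervals and open triangles at the upper bound where no UMI was seen. Prox1 is at 133 CPM in P2 valve cells and 20.8 in endocardial cells, while Foxc2 and Gata2 lie close together in these 2 classes.

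The sequence before the first RefSeq start of Prox1 is shown beside those of the lymphatic genes Reln and Pdpn, since at P2 Prox1 was carried by valve and lymphatic cells and the others mainly by lymphatic cells. Each is the 250 bases before the start, from the GRCm38.p6 assembly and 5′ to 3′ on the strand of the gene: Prox1 at chr1:190170828-190171077 (minus), Reln at chr5:22344706-22344955 (minus) and Pdpn at chr4:143299565-143299814 (minus). Capitals mark 3 short motifs searched on both strands: the letters AACAAT or ATTGTT for SOX factors, AGATAA or TTATCT for GATA factors and GTAAACA or TGTTTAC for forkhead factors, none of which overlapped another.
Prox1: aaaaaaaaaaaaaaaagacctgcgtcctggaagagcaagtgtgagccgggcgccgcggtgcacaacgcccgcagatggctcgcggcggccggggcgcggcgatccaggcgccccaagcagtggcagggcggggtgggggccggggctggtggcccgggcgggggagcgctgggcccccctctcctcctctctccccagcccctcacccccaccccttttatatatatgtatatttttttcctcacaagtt
Reln: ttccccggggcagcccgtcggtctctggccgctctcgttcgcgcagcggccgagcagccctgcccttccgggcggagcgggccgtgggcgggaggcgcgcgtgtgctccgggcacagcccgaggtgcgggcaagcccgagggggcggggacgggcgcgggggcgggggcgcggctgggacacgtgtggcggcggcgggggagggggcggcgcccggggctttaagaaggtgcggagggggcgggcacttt
Pdpn: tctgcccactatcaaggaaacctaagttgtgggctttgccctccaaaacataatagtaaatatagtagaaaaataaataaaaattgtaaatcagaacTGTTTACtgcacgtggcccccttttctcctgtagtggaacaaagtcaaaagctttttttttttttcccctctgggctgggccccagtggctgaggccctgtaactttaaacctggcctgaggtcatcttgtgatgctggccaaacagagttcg
The forkhead letters occur in Pdpn, 153 bases before the start, and none of the 3 motifs occurs in the windows of Prox1 (2 starts), Reln or Gata2 (2 starts). Of 32851 windows of this length, 9.42% hold the SOX letters, 9.99% the GATA letters and 3.17% the forkhead letters. The RefSeq starts of Mmrn1 and Itga9 lie well inside the genes as placed by the annotation used here, so their windows are not shown. No RefSeq entry was matched for Foxc2 and Lyve1.

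Foxc2 (ENSMUSG00000046714, plus strand, chr8:121116171-121118895), the forkhead factor of lymphatic valve formation, was carried by valve and endocardial cells at levels close to each other. Valve cells held 85.3, 47.7, 121 and 121 CPM over the 4 stages, endocardial cells 59, 42.8, 92.1 and 43.2, and coronary cells 25.2, 19.5, 15.9 and 4.78. The P2 ratio of valve to endocardial cells was 1.31 (1.13 to 1.53), while that of endocardial to coronary cells was 5.8 (5.01 to 6.72). Lymphatic cells held 48.1 CPM at P2 (34 to 66), above coronary cells at a ratio of 3.03 (2.11 to 4.25) and below endocardial cells at 0.522 (0.364 to 0.729). The adult valve value of 11 UMIs gave a ratio of 2.8 to endocardial cells, with an interval of 1.03 to 8.03.

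Gata2 (ENSMUSG00000015053, plus strand, chr6:88193891-88207032), a zinc finger factor of blood and lymphatic endothelium, was not higher in lymphatic than in coronary cells at P2. It stood at 141 CPM in valve, 119 in endocardial, 64.4 in coronary and 45.6 in lymphatic cells. The ratio of lymphatic to coronary cells was 0.707 (0.493 to 0.984), beside 2.46 at E15 (0.0606 to 14.6, 1 UMI) and 1.51 in the adult (0.311 to 4.43, 3 UMIs). Coronary cells held 16.8, 22, 64.4 and 127 CPM from E12 to the adult, a series from 4 different libraries with no replicate. Gata2 was the only member that did not reach 2-fold in lymphatic over coronary cells at P2.

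Itga9 (ENSMUSG00000039115, plus strand, chr9:118606690-118901003) was higher in valve and lymphatic cells than in the other classes at P2. At P2 valve cells held 55.3 CPM (46.5 to 65.3), lymphatic cells 50.6 (36.2 to 68.9), endocardial cells 28.8 (24 to 34.3) and coronary cells 18.2 (16.4 to 20.1). Valve and lymphatic levels overlapped in their intervals, and both lay above the other classes. The ratio of valve to endocardial cells was 2.57 at E15 (1.07 to 5.34, 8 UMIs), 1.92 at P2 (1.5 to 2.47) and 0.815 in the adult (0.187 to 2.83, 4 UMIs). Lymphatic cells of the adult held 6 UMIs, or 384 CPM (141 to 836).

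The E12 library also held its empty droplets, in which free RNA can be read. In 156821 barcodes of 1 to 100 UMIs, Itga9 stood at 69.9 CPM, Foxc2 at 43.8, Gata2 at 32.9, Lyve1 at 31.5 and Prox1 at 9.59. The E12 endocardial levels of Itga9 (39.1), Lyve1 (7.73) and Prox1 (7.33) were no higher than this. Foxc2 and Gata2, at 59 and 40.3 CPM, were above it by less than 1.5-fold, with intervals that overlap those of the droplets. No E12 level of these 5 members is therefore read as expression. Empty droplets of the other stages were not analysed here.

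Lyve1 (ENSMUSG00000030787, minus strand, chr7:110850607-110863239), the hyaluronan receptor of lymphatic capillaries, was also present in endocardium. Since it helped to choose lymphatic cells, it was read in cells chosen by 2 or more of the other 3 genes, where it stood at 1114 CPM at P2 (100 cells, 85 of them with Lyve1) and 2010 in the adult (6 cells, 23 UMIs). Endocardial cells held 7.73, 21, 115 and 151 CPM over the stages, and coronary cells 21, 10.4, 17.1 and 7.45. At P2, 21.7% of endocardial and 4.06% of coronary cells held a Lyve1 UMI, and the ratio of endocardial to coronary cells was 6.74 (5.88 to 7.73). Both classes leave out cells chosen partly on Lyve1. Set apart from lymphatic cells by the other 3 genes only, they held 115 and 25 CPM at P2. All valve cells of P2 held 122 CPM, a ratio of 1.06 to endocardial cells (0.915 to 1.22).

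Mmrn1, Reln and Pdpn were far higher in lymphatic than in any other class at P2. Mmrn1 (ENSMUSG00000054641, chr6:60924976-60989378) encodes the matrix protein multimerin 1, Reln (ENSMUSG00000042453, chr5:21884454-22344702) the secreted glycoprotein reelin and Pdpn (ENSMUSG00000028583, chr4:143267431-143299564) the membrane mucin podoplanin. Read at P2 in cells chosen by 2 or more of the other 3 genes, Mmrn1 stood at 322 CPM, Reln at 288 and Pdpn at 369.9. Their ratios to coronary cells were 117 (87.7 to 158), 107 (79.1 to 146) and 144 (108 to 197). Endocardial cells of P2, set apart from lymphatic cells by the same other 3 genes, held 1.37, 0.457 and 0.685 CPM, from 6, 2 and 3 UMIs. In the adult, 12, 11 and 13 UMIs in lymphatic cells stood beside 0 in the 22 valve and 0 in the 70 endocardial cells, at least 49.5-fold, 51.5-fold and 55.3-fold higher than endocardial cells. The adult coronary cells, set apart in the same way, held 5, 4 and 26 UMIs of these genes, the last in 18 of 4054 cells (3.65 CPM). At E15, 28 of the 49 Pdpn UMIs of the library and 9 of its 17 Reln UMIs were in cells of no class, and at E12 71 of 107 Pdpn UMIs were.

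**Figure D2:**
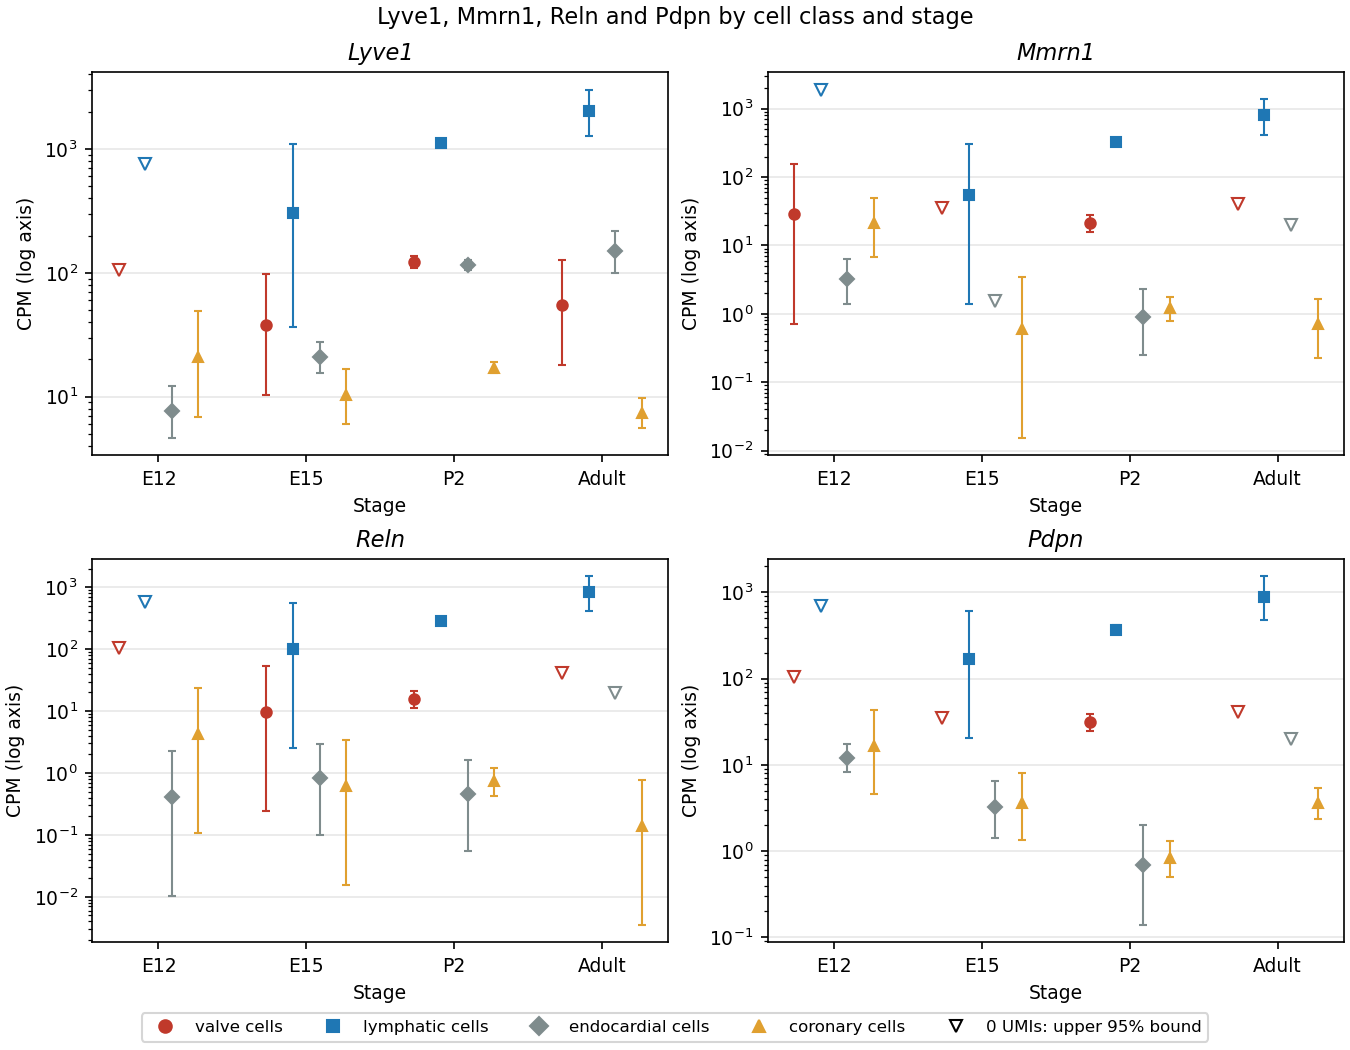
CPM (log axis) of Lyve1, Mmrn1, Reln and Pdpn by class and stage, with exact 95% counting intervals and open triangles at the upper bound where no UMI was seen, where each gene's lymphatic cells are those chosen by 2 or more of the other 3 genes. At P2 the lymphatic levels, 1114 CPM for Lyve1 and 288 to 369.9 for the others, lie above every other class, and Lyve1 alone is also high in endocardial cells.

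Counted over the members, 7 of 8 were at least 2-fold higher in lymphatic than coronary cells at P2, and none lower, where 10.4% of 16718 genes with any UMI were that much higher and 7.6% that much lower. All 7 had intervals above 1, and the median log2 ratio of the members was 5.47, against 0.05 over all genes. Lyve1, Mmrn1, Reln and Pdpn are the genes of the lymphatic rule, so their part in the counts and the median is a description. The shares and median over all genes use the rule as written, not the other 3 genes. Of the members outside the rule, Prox1, Foxc2 and Itga9 stood at 44.1-fold, 3.03-fold and 2.79-fold, and Gata2 at 0.707-fold. At E15 the count was also 7 (background 13%), of which 4 had intervals above 1 and 4 rested on a single lymphatic UMI. There 7 of the 9 lymphatic cells held exactly 2 of the rule genes. The UMIs of Lyve1, Mmrn1, Reln and Pdpn could thus come only from the 2 cells that held 3 of them. In the adult it was 7 (background 12.7%), of which 6 had intervals above 1. At E12 it was 0 of 8 (background 15.1%), where Prox1, Foxc2, Gata2 and Itga9 had no UMI in the 5 lymphatic cells. For the other 4 genes that 0 was fixed, since each of the 5 cells held exactly 2 of them, and nothing is read from it.

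In valve over endocardial cells, 4 of 8 members were at least 2-fold higher at P2, Prox1, Mmrn1, Reln and Pdpn, and none lower, where 8.84% of 15554 genes were that much higher and 3.43% that much lower. The counts were 1 of 8 at E12 (background 12.9%, Mmrn1 from 1 UMI), 3 of 7 with UMIs at E15 (12.4%, Prox1, Itga9 and Reln, the last from 1 UMI) and 2 of 5 in the adult (18.9%, Prox1 and Foxc2). In the adult Gata2 stood at 0.446-fold (0.166 to 1.03) and Lyve1 at 0.364-fold (0.11 to 0.955). The P2 median log2 ratio of the members was 1.81, against 0.05 over all genes. These counts include the valve cells that met the lymphatic rule themselves, while endocardial cells that met it were left out. At P2, 2 of 1082 cells by the endocardial rule met it. Lyve1, Mmrn1, Reln and Pdpn are the genes of that rule, so their part in the counts and the median is a description. With cells counted in every class they met, the P2 count was also 4.

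Of the valve cells, 23 of 427 at P2 also met the lymphatic rule, or 5.39% (3.44% to 7.97%). The share was 0.185% of cells by the endocardial rule (0.0224% to 0.666%) and 3.2% of cells by the coronary rule (2.71% to 3.75%). At E15 it was 1 of 65, at E12 0 of 21, which allows up to 14.3%, and in the adult 0 of 22, which allows up to 13.6%. The 23 cells had a median of 6387 UMIs, against 5106.5 for the other 404. They held 21837 CPM of Ccl21a, against 216, and 69.9 CPM of the valve gene Postn, against 971. Cldn11, the tight junction gene of the valve rule, was seen in 91.3% of them and Enpp2 in 26.1%. Cldn11 was also seen in 33 of the 128 cells classed as lymphatic, so the valve rule admits cells by a gene that lymphatic cells carry as well.

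The valve cells were read again without those 23 cells. The cells left out were chosen on Lyve1, Mmrn1, Reln and Pdpn, so lower values of these 4 genes follow from the rule and are given as descriptions. Prox1, which the rule did not use, stood at 119 CPM in the 404 cells (105 to 134), 30.4% of which held a UMI, and its ratio to endocardial cells was 5.72 (4.5 to 7.33). Mmrn1 went from 21.2 to 5.56 CPM, Reln from 15.6 to 0.855 and Pdpn from 31.3 to 5.56, on 13, 2 and 13 remaining UMIs. Lyve1 went from 122 to 63.7 CPM, and its ratio to endocardial cells from 1.06 to 0.553 (0.458 to 0.666). Foxc2 (125 CPM), Gata2 (143) and Itga9 (53.9) stood within their earlier intervals. Prox1, Mmrn1 and Pdpn, 3 of 8 members, were at least 2-fold higher than in endocardial cells. Of these only Prox1 is not a gene of the lymphatic rule, and Mmrn1 and Pdpn rest on 13 UMIs each. The share over all genes was not counted for the 404 cells, so nothing is read from this count. In the 374 cells that also lacked a Ccl21a UMI, a choice made after the data were seen, Prox1 was at 110.0 CPM, a ratio of 5.29 (4.14 to 6.82), and Mmrn1 and Reln had ratios of 1.53 (0.224 to 9.05) and 1.02 (0.0173 to 19.6). Pdpn kept 10 UMIs in 3 cells, a ratio of 6.8 (1.75 to 38.5).

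**Figure D3:**
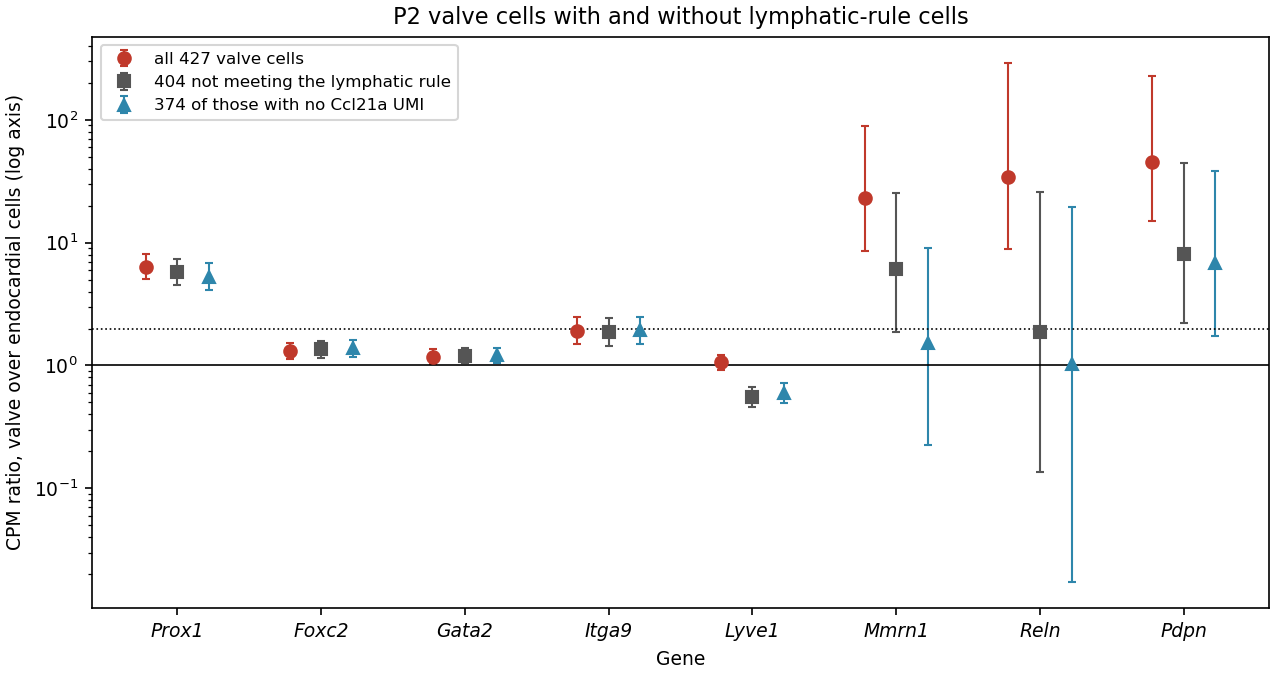
Ratio of CPM in P2 valve cells to endocardial cells (log axis) for each member, for all 427 valve cells, the 404 not meeting the lymphatic rule and the 374 of those with no Ccl21a UMI, with exact 95% intervals, a solid line at 1 and a dotted line at 2. Prox1 lies between 5.29 and 6.38 in the 3 sets. The lower values of Lyve1, Mmrn1, Reln and Pdpn in the 404 cells follow from the rule that removed the cells. The 374 cells were also chosen on Ccl21a, which is not part of that rule, and the part of this choice in their values was not tested.

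Prox1 was uneven within the P2 valve cells. Of the 404 cells, those with Cldn11 together with Enpp2 or Aqp8 held 208 CPM of Prox1 (176 to 245, seen in 51.2% of 121 cells). Those with Cldn11 alone held 125 CPM (100 to 153, 22.8% of 136), and those with Enpp2 or Aqp8 alone 47.5 CPM (34.5 to 63.7, 20.4% of 147). Foxc2 and Itga9 were highest in the first group too, at 222 and 91.9 CPM, against 79.9 and 27 in the last. Lyve1 stood at 11.5, 97.9 and 76.6 CPM, and at 23.5, 255 and 79.8 with the 23 cells, and Gata2 lay between 131 and 155 CPM in the 3 groups. Ccl21a stood at 11.5, 681 and 10.8 CPM in these groups, with its 487 UMIs in the second from 12 cells, and its part in the Prox1 value there was not tested. Not all of the 404 cells met the coronary or the endocardial rule. The 213 that met the coronary rule held 168 CPM of Prox1 (147 to 191), 35.6 of Lyve1 (26.3 to 47.2) and 367 of Ccl21a. The 145 that met the endocardial rule held 37.7 CPM of Prox1 (25.4 to 53.8), 113 of Lyve1 (90.9 to 139) and 8.79 of Ccl21a. Between these sets the intervals of Prox1 did not overlap. Those of Lyve1 did not either, but with the 23 cells the coronary-rule set held 134 CPM of Lyve1 (116 to 154), so its order depends on leaving them out. Foxc2 (145 and 99.2 CPM), Gata2 (149 and 144) and Itga9 (51.2 and 49) differed less.

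**Figure D4:**
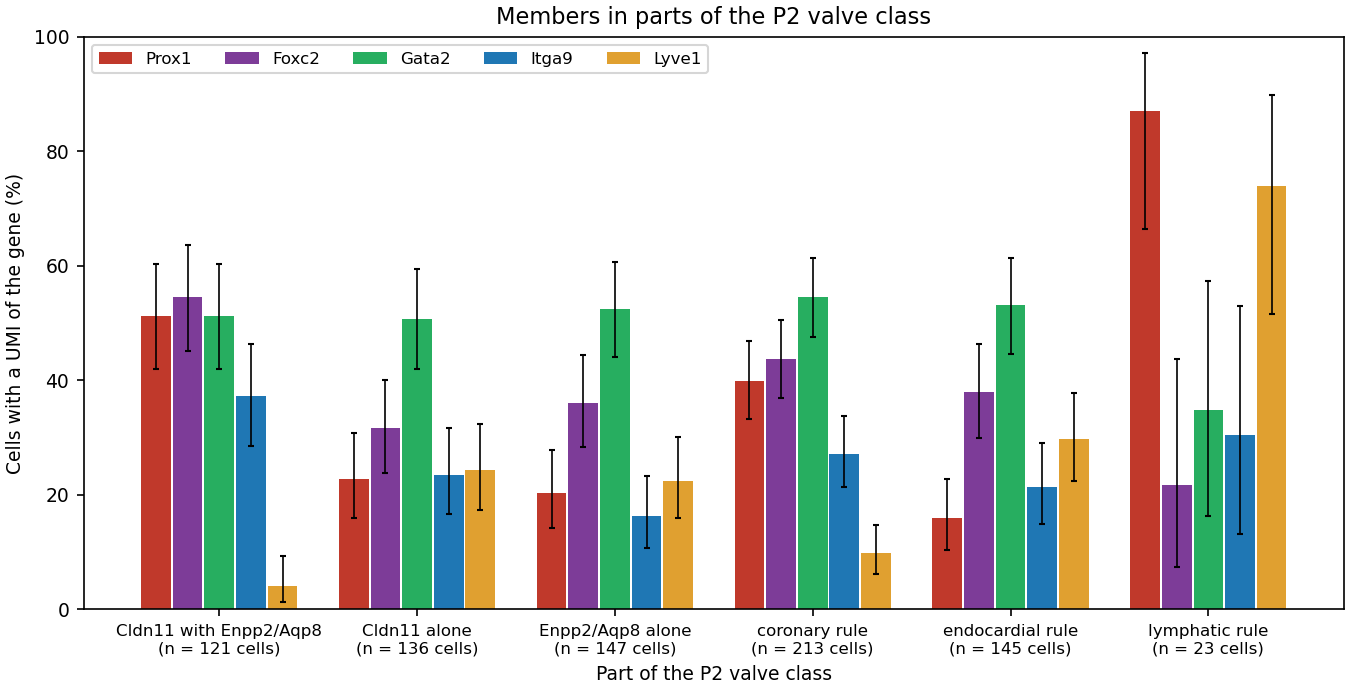
Percent of P2 valve cells with a UMI of Prox1, Foxc2, Gata2, Itga9 or Lyve1, by the valve genes seen in the cell and by the other rules it meets, with exact 95% intervals. All but the last set of bars leave out the 23 cells of the lymphatic rule. The first 3 sets divide the remaining cells, and the next 2 are drawn from the same cells without holding all of them. Prox1 runs from 15.9% in cells of the endocardial rule to 51.2% in cells with Cldn11 and Enpp2 or Aqp8, and Lyve1 is at 4.13% in the latter.

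Foxc2 was seen in a larger share of the valve cells with Prox1 than of those without, with intervals that did not overlap. In the 404 P2 valve cells, 55.3% of the 123 with a Prox1 UMI held Foxc2 (46.1% to 64.3%), against 33.5% of the 281 without (28% to 39.3%). Itga9 was in 34.1% (25.8% to 43.2%) against 21% (16.4% to 26.2%). These Itga9 intervals overlapped slightly. The Gata2 shares, 55.3% and 49.8%, had intervals that overlapped widely. Lyve1 was in 8.94% against 21.4%, a gap that rests on leaving out cells chosen partly by Lyve1, since over all 427 valve cells it was in 18.9% (12.8% to 26.3%) against 21.5% (16.8% to 26.7%). Cells with Prox1 were the deeper ones, with a median of 5599 UMIs against 4890, and the part of this gap in the shares was not tested. After thinning to 500 UMIs only 19 of these cells kept a Prox1 UMI, too few to compare. In valve cells Prox1, Foxc2 and Itga9 were all highest where Cldn11 was seen with Enpp2 or Aqp8. The part of this in the shares was not tested. In lymphatic cells the shares with Prox1 (98 cells) and without (30 cells) had overlapping intervals for all 7 other members, as for Foxc2 at 24.5% (16.4% to 34.2%) and 30% (14.7% to 49.4%). There Itga9 was in 48.5% of 33 cells with Foxc2 (30.8% to 66.5%) and in 17.9% of 95 without (10.8% to 27.1%). This pair is picked from all pairs of members that were counted, and the part of depth in its gap was not tested.

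**Figure D5:**
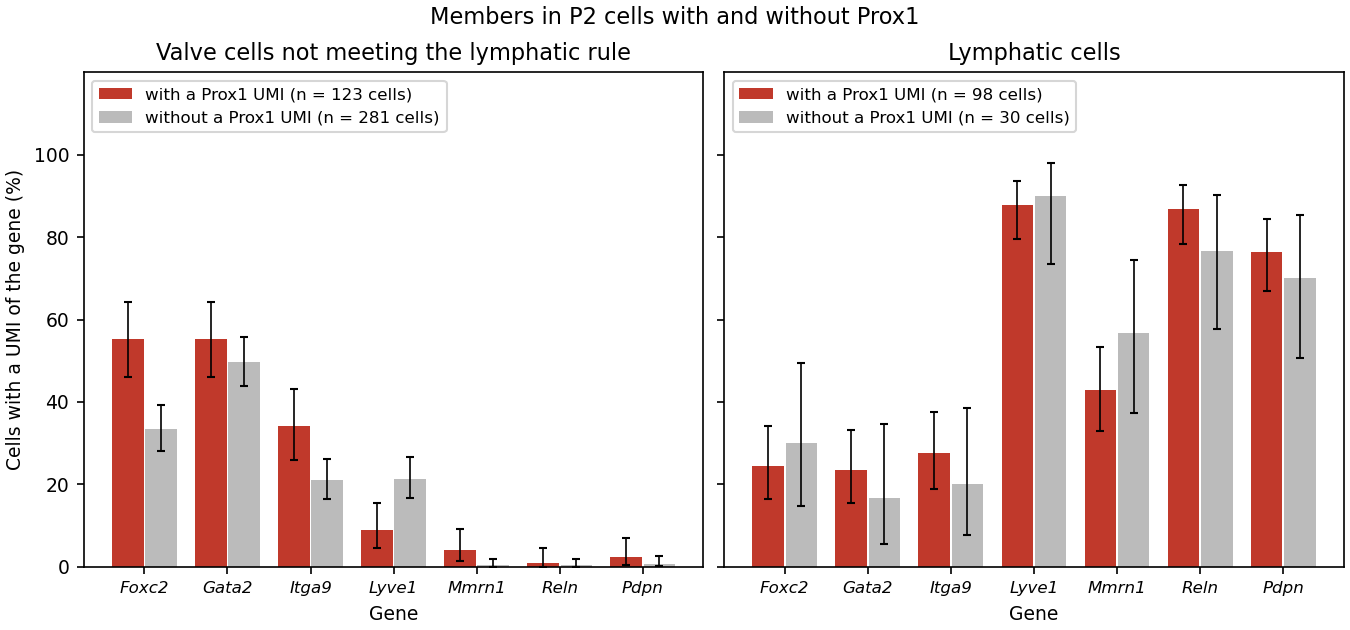
Percent of P2 cells with a UMI of each other member, among cells with and without a Prox1 UMI, in the 404 valve cells not meeting the lymphatic rule (left) and in lymphatic cells (right), with exact 95% intervals. Foxc2 is in 55.3% of valve cells with Prox1 and 33.5% without, while in lymphatic cells the intervals overlap for all 7 genes.

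Counting Prox1, Foxc2, Gata2 and Itga9 per cell, 46.1% of P2 valve cells held 2 or more of the 4 (41.3% to 51%), as did 46.1% of lymphatic cells (37.2% to 55.1%). The share was 22.1% of endocardial cells (19.5% to 24.9%) and 5.71% of coronary cells (5.03% to 6.45%). Median depths were 5144, 5380.5, 4486 and 4468 UMIs, and no thinned share was taken. The equal shares of valve and lymphatic cells differ in make-up. Foxc2 and Gata2 were seen in 39.1% and 50.6% of valve cells, against 25.8% and 21.9% of lymphatic cells. Prox1 was seen in 33.5% against 76.6%, and Itga9 in 25.3% against 25.8%. The valve cells here include the 23 of the lymphatic rule. All 4 were seen in 21 of 427 valve cells and in 1 of 128 lymphatic cells. In the adult, 4 of 22 valve and 3 of 11 lymphatic cells held 2 or more.

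Other lymphatic genes were read from 4 lists at P2. Of the VEGF-C pathway, through which lymphatic vessels grow, Flt4, its receptor, and Nrp2, its co-receptor, were 9.69-fold (8.07 to 11.6) and 3.14-fold (2.8 to 3.52) higher in lymphatic than coronary cells, and Vegfc itself was at 0.263-fold (0.113 to 0.52), of 7 genes with UMIs. None of the 7 reached 2-fold in valve over endocardial cells, where 8.84% of 15554 genes did. For a list of 7 this is near that share, and nothing is read from it. Flt4 was at a ratio of 1.24 (0.853 to 1.79) in the 404 valve cells. Of 5 regulators and partners of Prox1, Nr2f2, which acts upstream of Prox1 in veins, was 3.36-fold higher in lymphatic than coronary cells (2.85 to 3.93) and at 0.803-fold in valve over endocardial cells (0.7 to 0.919). In the 404 valve cells Sox18 and Hhex, further Prox1 regulators, stood at 1.44-fold (1.11 to 1.87) and 1.52-fold (1.26 to 1.83) of endocardial cells. Others of the 5 were lower there, such as Nr2f2 at 0.753-fold (0.652 to 0.867). Tbx1, a T-box factor, was 122-fold higher in lymphatic cells (75.6 to 207), and its valve ratio rested on 1 endocardial UMI.

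Of 16 genes of lymphatic valve formation, 7 were at least 2-fold higher in lymphatic than coronary cells, beside 10.4% of all genes. In valve over endocardial cells 5 were, beside 8.84%. None was at least 2-fold lower in either, where 7.6% and 3.43% of all genes were, and nothing is read from that. The 5 include Cldn11, which chose the cells. Without the 23 cells, where no share over all genes was counted, the valve count was 3, Cldn11 among them. The planar polarity gene Celsr1 then stood at 3.37-fold (1.47 to 8.17). The connexin gene Gja4 stood at 1.87-fold (1.67 to 2.1) and Nfatc1, a valve factor of heart and lymphatics, at 1.32-fold (1.09 to 1.59), while Foxc1 was at 0.698-fold (0.595 to 0.817). Of 9 lymphatic identity genes, 8 were at least 2-fold higher in lymphatic than coronary cells (10.4% of all genes) and 2, Ccl21a and Thy1, in valve than endocardial cells (8.84%). In the 374 valve cells with no Ccl21a UMI, Thy1, a surface glycoprotein, was at 3.37-fold (1.96 to 5.93). It was the only 1 of 8 identity genes with UMIs to reach 2-fold there. Ccl21a is among the 8, and its 0 there was fixed by the choice of cells. Others of the identity list stood below endocardial cells, and its median log2 ratio was 0.21. No share or median over all genes was taken for the 374 cells, so nothing is read from this count or median. The median log2 ratios of the 4 lists in valve over endocardial cells, 0.41, 0.58, 0.43 and 0.48 in the order given, stand beside 0.05 for all genes. They came to 0.14, 0.52, 0.38 and 0.27 in the 404 cells, where no median over all genes was taken. Some of the ratios rest on few UMIs, such as Ccbe1 with 1 in the 404 valve cells and 1 in endocardial cells. These medians are descriptions.

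Across genes at P2 other than those of the class rules, which leaves out Lyve1, Mmrn1, Reln and Pdpn, 81 of 5092 with at least 20 UMIs in valve and in lymphatic cells (1.59%) were 2-fold or more higher both in valve over endocardial and in lymphatic over coronary cells. The 10 with the highest smaller ratio were Ccl21a, Fibin, Ptx3, Tc2n, Dtx1, Tbx1, Prss23, Hoxd8, Hoxd9 and Sema3d, and Prox1 was at rank 23. Order among these genes is loose, since Fibin, Ptx3, Tc2n, Dtx1 and Tbx1 had 1 endocardial UMI each and Hoxd9 had 0, with a valve ratio for Ptx3 of 82.4 (14.1 to 3325). With valve cells of the lymphatic rule or with Ccl21a left out, a choice made after the data were seen, 47 of 5058 remained in number and Prox1 stood at rank 11. The 10 above it were then Foxp2, Cd24a, Emid1, Prss23, Nrxn2, Sh3gl3, S100a6, Lrg1, Olfm1 and Reep1, with Prss23 the only gene in both lists of 10. The forkhead gene Foxp2 held 11.7 CPM in these valve cells, 1.14 in endocardial, 68.3 in lymphatic and 1.31 in coronary cells, a valve ratio of 10.2 (3.84 to 34.1). Cd24a, a glycoprotein anchored in the membrane, held 204, 23.8, 439 and 13.5 CPM in the same order, a valve ratio of 8.59 (6.92 to 10.7). Itga9 followed at rank 49, Foxc2 at 168 and Gata2 at 4367.

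Over the 16 combinations of class and stage, the genes whose levels ran most like Prox1 were Rnase4 (Pearson correlation of log2(CPM + 10) 0.933), Tmod2 (0.920), Timp2 (0.862), Sirpa (0.859) and Tmem237 (0.851), of 12199 genes. Of the members, Itga9 was at 0.788, Lyve1 at 0.749, Reln at 0.546, Gata2 at 0.516, Pdpn at 0.498, Mmrn1 at 0.343 and Foxc2 at 0.321. The lymphatic cells here are those of the rule as written, so the values of Lyve1, Reln, Pdpn and Mmrn1 are partly set by it. Like Prox1, the 5 genes most like it had 0 UMIs in the valve and lymphatic cells of E12, which are not read as expression. Rnase4 held 125 CPM in valve, 194 in lymphatic, 28.3 in endocardial and 9.64 in coronary cells at P2. These are descriptions, as the 4 classes of a stage share a library and the smallest hold 5 to 22 cells.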

How the data were processed

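The authors made 10x Genomics 3′ libraries and deposited counts of UMIs per gene and barcode from Cell Ranger 2.2 on the mm10 (GRCm38) reference, whole numbers without normalization for 27998 genes. At E12, barcodes with at least 452 UMIs were kept as cells; the other files held called cells. Members, classes and gene lists were chosen with earlier results of these data known. Gene positions are from the GENCODE annotation of GRCm38. UMIs were summed per class and stage as CPM, with exact Poisson intervals for levels, exact Clopper-Pearson intervals for shares and exact conditional binomial intervals for ratios (Python 3.11.15, numpy 2.4.6, scipy 1.17.1, pandas 2.3.3), tested on simulated data. Limits for 0 use 3 counts. A member that chose lymphatic cells was read in cells chosen by 2 or more of the other 3 genes. A ratio against a class at 0 was taken against 3 counts, and lists were read in the same way. The named genes are the 8 members, 4 fixed lists by their counts, the 10 genes highest in both valve and lymphatic cells at P2 and the 5 genes most like Prox1. Values of 1 gene in the lists are not reported here. Lymphatic cells, which the study left out, were kept. Doublets were not removed in the main values; as an alternative, cells scored over 0.15 by Scrublet's algorithm (written out, 0.8% doublets expected per 1000 cells) were left out: 8.25%, 11.6%, 4.47% and 3.68% of cells from E12 to the adult. Other alternatives were the study's upper limits on UMIs, genes and mitochondrial share, other orders and thresholds of the class rules, cells free of other cell types, thinning to 500 UMIs, leaving out the cell with most UMIs, and a minimum of 20 UMIs.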

Additional observations from a re-analysis of the deposited data

How the results depend on the processing

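No paired analysis was possible because each stage has 1 library and the shared replicate number marks no pair. Prox1 in valve over endocardial cells (log2 ratio 3.45 at E15, 2.67 at P2) kept its sign under all alternatives at E15 and P2, and came to 3.08 at P2 with thresholds of 3, 3.50 in cells free of other cell types and 2.24 when thinned; the adult value of 1.03 became -0.80 under the upper limits. With thresholds of 3, cells free of other types, doublets removed, thinned or Enpp2 and Aqp8 alone (added later), the E15 overlap of valve cells with the lymphatic rule was 0%, against 1.54%. The P2 overlap of 5.39% became 2.08%, 14.9% (17 of 114 cells), 0.703% (thinned) and 1.24% (Enpp2 and Aqp8 alone). The count of members higher in valve cells at P2, 4, became 2 when thinned or without Ccl21a cells. At E15, 3 became 1 with Enpp2 and Aqp8 alone. In the adult, 2 became 1 under the upper limits, the rules as written, doublets removed, thinned, without the top cell or with 20 UMIs, and 0 in cells free of other types. At E12, 1 became 0 in 8 alternatives. For lymphatic over coronary cells at E15, 7 became 4 under the upper limits, 1 thinned, 3 without the top cell and 3 with 20 UMIs (Gata2, Itga9 and Lyve1); P2 and the adult did not move by over 1.5 times. The causes were not tested. Of P2 cells in both the valve and lymphatic rules, 4 of 23 had doublet scores over the limit, and 5.39% of all valve cells did. Leaving out the top cell and the 20-UMI minimum could not be applied to the overlap, nor could the lymphatic rule first, which makes it 0 by construction. Depth limits E12, E15 and the adult, where the valve class has 21 to 65 cells.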

Other observations

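Cells in none of the 4 classes, numbering 3887, 2650, 158 and 85 from E12 to the adult, also held the members. At E15 they held 20.8 CPM of Prox1 (60 UMIs in 52 cells), 45.3 of Foxc2 and 9.69 of Pdpn. At P2 they held 25.9 CPM of Prox1, 71.4 of Lyve1 and no UMI of Mmrn1 or Reln. At least 2 UMIs of endothelial markers were held by 48.1% of the 52 E15 cells with Prox1 and 3.7% of the 27 with Pdpn, beside 39.1% of all E15 cells in no class. At least 2 UMIs of mesenchymal markers were held by 15.4% and 88.9%, beside 29.4% of all.

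Among P2 lymphatic cells, those with Cldn11 (33 cells) and those without (95 cells) held 207 CPM (151 to 277) and 314 CPM (270.1 to 364) of Prox1, and 64.4 (35.2 to 108) and 41.9 (26.9 to 62.4) of Foxc2. Flt4 stood at 152 (104 to 213) and 236 CPM (198 to 279), and Reln at 303 and 295 CPM with overlapping intervals. The valve rule was applied before the lymphatic rule, so cells with more UMIs of Cldn11 were already in the valve class. The split therefore leaves out the cells richest in Cldn11, and whether Prox1 goes with Cldn11 in lymphatic cells was not tested.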
